A study of Mus musculus with 12 samples.

Results

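The genes described here are 9 members of the interleukin-6 (IL-6) cytokine family and its receptors, measured in mouse aorta. They are the cytokines Il6, Il11, Lif, Osm and Clcf1 and the receptor chains Il6st, Il6ra, Osmr and Lifr. They were found on the array by gene name among the non-control probes, which gave 11 probes of 55681, and 9 gene names of 34796. Each gene has 1 probe except Lifr, which has 3. The family was taken up because Il11 and Il6 stood out in an earlier look at these arrays, Il11 for its level with rapamycin under the challenge and Il6 for its level under the challenge in mice given rapamycin. The values of both genes in those comparisons, and in others that share the same challenged arrays, are therefore given as a description with no test.

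Cytokines of this family act through receptor complexes that share the signal-transducing chain gp130, the product of Il6st. IL-6 and IL-11 first bind a specific alpha chain and then a pair of gp130 molecules, while LIF, oncostatin M and CLCF1 join gp130 to the LIF receptor or the oncostatin M receptor. The receptors activate Janus kinases and the transcription factor Stat3, which switches on acute-phase genes and its own inhibitor Socs3. In the vessel wall, IL-6 is made by smooth muscle cells, fibroblasts and macrophages, and IL-11 by stromal cells.

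RNA was measured on day 3 in 12 aortic samples, 3 in each of 4 groups, each from a segment of 10 mm taken from male C57BL/6J mice aged 11 to 14 weeks. The labels do not say that each sample is a separate mouse, so p-values measure the spread between these samples. DMSO mice received the vehicle dimethylsulfoxide, and rapamycin mice received rapamycin, an inhibitor of the kinase mTOR, at 2 mg/kg/day. BA+DMSO mice received the vehicle with β-aminopropionitrile (BAPN, 150 mg/kg/day), an inhibitor of collagen crosslinking, and angiotensin II (AngII, 1 µg/kg/min), and BA+rapamycin mice received BAPN, AngII and rapamycin at the same doses. BAPN and AngII together are called the challenge, and in this model they lead to aortic dissection. Sample titles in the DMSO group start with the word Pre, although the design text lists DMSO alone at day 3. A level is the log2 of the processed signal minus the array's 75th percentile of that signal, and a difference is between group means on that scale. Values in order are those of replicates 1, 2 and 3 of a group.

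Array brightness, the 75th percentile of the signal in intensity units, ranged from 221.5 to 279.8 for DMSO arrays and from 257.4 to 337.3 for rapamycin arrays. It was 132, 78.1 and 246.4 for BA+DMSO and 109.3, 74.6 and 107.9 for BA+rapamycin, so that all challenged arrays but BA+DMSO replicate 3 were dimmer than every unchallenged array. No spot was saturated. BA+DMSO arrays correlated with each other across probes at 0.91 to 0.96, against 0.97 or more for pairs within the other groups. All 4 smooth muscle markers (Acta2, Myh11, Tagln, Cnn1) and all 3 endothelial markers were well above background on every array. The liver list had at most 1 of 2 markers and the adrenal list 1 of 3 markers above background on any array. All DMSO arrays lay on slide 1 with rapamycin replicate 1, and all challenged arrays on slide 2 with rapamycin replicates 2 and 3.

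The probe sequences below show which transcript each measurement reads. Each is 60 bases long, and the first 30 bases are given 5′ to 3′ in lower case, with the position in mouse build mm9 that the scanner files state. They are shown for Il6 and Il11, on which the family was chosen, for Lif, which like Il6 was detected only under the challenge, and for the 3 Lifr probes, which did not give the same result.
Il6, chr5:30346367-30346426, plus strand: ctgttacctagccagatggtttcttggaat
Il11, chr7:4724847-4724906, minus strand: ctggggtctctatgaaatctgttcacagtg
Lif, chr11:4172032-4172091, plus strand: agagagaagcaaaggggcctttatttatta
Lifr probe 1, chr15:7147319-7147378, plus strand: catagatgatgtaaatagcctaagacactg
Lifr probe 2, chr15:7135072-7135131, plus strand: taaaaacttggaaatgtatccaggcctaac
Lifr probe 3, chr15:7141150-7141209, plus strand: agaacaaaccaaatgactaaccaggtcacc

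The challenge raised Clcf1 among the cytokines and Il6ra and Osmr among the receptors, and in mice given rapamycin it raised Clcf1, Il6ra and Osmr again and lowered the receptor chains Il6st and Lifr, the latter by 1 of its 3 probes. With the slide as a fixed block no call on vehicle remained, and Il6ra and Clcf1 lost theirs in 18 and 11 of 23 alternative settings. With brightness as a covariate in mice given rapamycin, Il6ra turned to -0.17 and Il6st and Lifr lost their calls. Clcf1 and Osmr kept theirs there. In whole tissue, fewer cells of a type and less RNA per cell cannot be told apart. A probe was tested if some group had all 3 of its arrays well above background. Il6 and Lif met this only through BA+rapamycin, so they had to be higher in that group than in those where they were undetected, and Osm did not meet it. Counts of calls are therefore given over the tested members that were detected on all 12 arrays, and the values of Il6 and Lif stand apart from them. With the challenge 3 of these 5 members were called higher and 0 lower at a limma adjusted p under 0.05, where 20.5% of all probes were called and 9.65% were called higher. An unadjusted p under 0.05 was reached by 4 of the 5 and by 35.3% of all probes. In mice given rapamycin 3 of 5 were called higher and 2 lower, with Lifr read by its brightest probe, where 41.7% of all probes were called, 18.9% higher and 22.9% lower, and 51.9% had an unadjusted p under 0.05. Rapamycin under the challenge gave 0 calls by limma among the 5, with 3 at an unadjusted p under 0.05, against 0.281% of all probes called, 0.0719% called higher and 20.1% at an unadjusted p under 0.05. Rapamycin alone gave 0 calls by limma among 6, Il11 included, with 1 at an unadjusted p under 0.05, against 0.0036% of all probes called and 4.27% at an unadjusted p under 0.05.

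**Figure D1:**
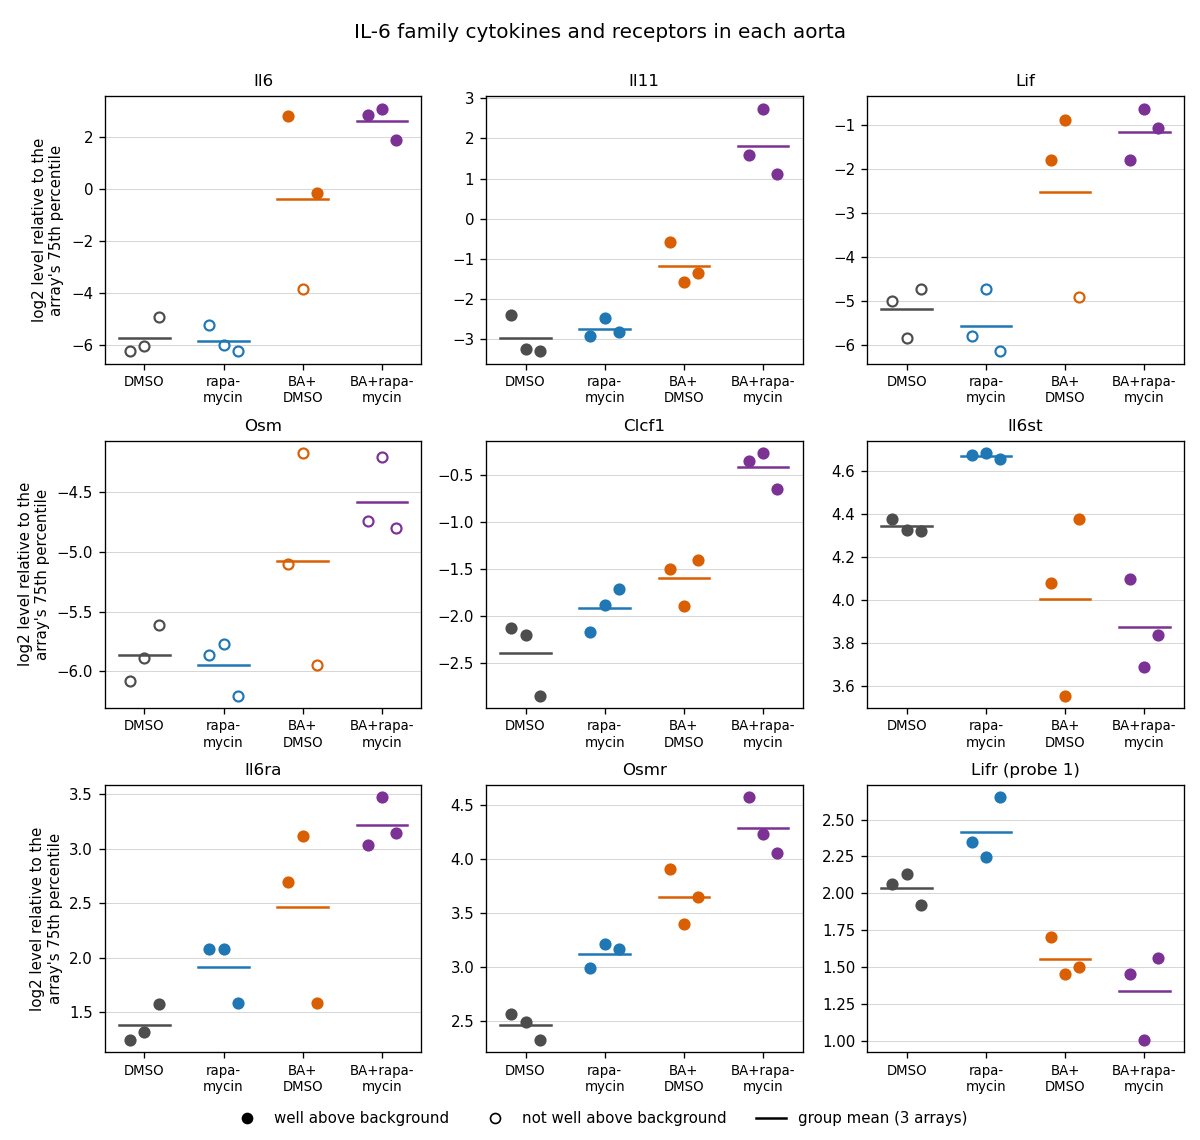
Log2 level of each of the 9 genes relative to the array's 75th percentile (y axis) on the 3 arrays of each group (x axis), with open points where the probe was not well above background and bars at group means. Il6 and Lif have open points on all 6 unchallenged arrays, and Osm on all 12 arrays.

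Il6 encodes the founding cytokine of the family. It was not well above background on any unchallenged array, with levels of -6.20, -6.03 and -4.90 in DMSO and -5.22, -5.99 and -6.23 in rapamycin. In BA+DMSO its levels were 2.84, -3.83 and -0.12, and replicate 2 was again not well above background. In BA+rapamycin all 3 arrays detected it, at 2.84, 3.11 and 1.91. The processed signal behind these levels was 3.82 to 7.41 intensity units on unchallenged arrays, 947, 5.47 and 226.6 in BA+DMSO, and 785, 644.5 and 405 in BA+rapamycin. BA+DMSO arrays ranged from no detection to the level seen in BA+rapamycin, and the 2 challenged groups overlapped.

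The challenge contrast gave Il6 a difference of 5.34 (SE 1.23, limma adjusted p 0.0135), taken against undetected DMSO values. The undetected BA+DMSO array had a processed signal within the range of the undetected DMSO arrays, so it has no order against them. With normexp background correction the difference was 2.66. Because no DMSO array detected it, the fold is given as a bound of at least 11.8-fold, with 2 of 3 BA+DMSO arrays measured. It counts the undetected value of BA+DMSO replicate 2 as measured, so it is not a strict lower limit. The bound rested on single arrays, at least 3.86-fold without BA+DMSO replicate 1 (difference 3.73) and at least 39.1-fold without BA+DMSO replicate 2 (difference 7.07). Without DMSO replicate 2 the adjusted p was 0.056, and leaving out any 1 of the other 11 arrays kept it below 0.05. In mice given rapamycin the difference was 8.44, a bound of at least 104-fold, and between the challenged groups it was 2.99. These last 2 differences are descriptions with no test, and the difference between the challenged groups was 1.26 without BA+DMSO replicate 2 and 0.15 with array weights. The difference in BA+rapamycin against rapamycin was 8.74 on slide 2 alone.

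Il11, a cytokine of stromal cells known for its role in fibrosis, was well above background on all 12 arrays. Its levels were -2.39, -3.23 and -3.30 in DMSO, and -2.92, -2.46 and -2.82 in rapamycin. They were -0.59, -1.58 and -1.34 in BA+DMSO, and 1.60, 2.74 and 1.105 in BA+rapamycin. On this scale the 2 unchallenged groups overlapped, BA+DMSO lay above both, and BA+rapamycin lay above all other arrays. The processed signal was 22.5 to 53.3 intensity units in DMSO and 33.9 to 49.3 in rapamycin. It was 87.7, 26.1 and 97.0 in BA+DMSO, so that replicate 2 lay within the DMSO range. In BA+rapamycin it was 232 to 498.9, above all other arrays. As descriptions, the group means differed by 1.81 for the challenge, 4.55 for the challenge under rapamycin and 2.98 for rapamycin under the challenge, which are folds of 3.49, 23.4 and 7.92. Rapamycin alone gave a difference of 0.24 (SE 0.42, 95% interval -0.67 to 1.15, limma adjusted p 1), a difference within the spread of the unchallenged arrays. With normexp background correction the 2 larger differences were 3.06 and 2.02. The challenge difference on vehicle ran from 1.02 to 2.31 over the alternative settings.

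Lif encodes leukaemia inhibitory factor, which acts through Lifr and gp130. None of the 6 unchallenged arrays detected it, at levels of -5.01, -5.85 and -4.73 in DMSO and -5.80, -4.74 and -6.15 in rapamycin. It was detected in BA+DMSO replicates 1 and 2, at -1.80 and -0.88, and not in replicate 3, at -4.91. It was detected on all BA+rapamycin arrays, at -1.80, -0.63 and -1.07. Replicate 3 of BA+DMSO, where Il6 was detected and Lif was not, was the brightest challenged array. Replicate 2, where Lif was detected and Il6 was not, was the dimmest of its group.

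The challenge contrast gave Lif a difference of 2.67 (SE 0.84, limma adjusted p 0.0452), which passed the threshold. No DMSO array detected Lif and neither did BA+DMSO replicate 3, so this difference and its p rest on undetected signals. The bound of at least 2.63-fold counts the undetected value of BA+DMSO replicate 3 as measured, so it is not a strict lower limit. The call was lost when any 1 of 11 arrays was left out, with adjusted p up to 0.156 without DMSO replicate 2. It was kept without BA+DMSO replicate 3 (0.000713). The bound rested on single arrays too, at least 6.00-fold without BA+DMSO replicate 3 and at least 1.49-fold without BA+DMSO replicate 2. In mice given rapamycin Lif was higher by 4.40, at least 7.53-fold, which is a description with no test, since Lif entered the test only through its detection in BA+rapamycin. Its signal was low where detected, 31.4 to 51.3 intensity units, against 4.62 to 10.2 elsewhere. The 5 arrays that detected Lif were the 5 dimmest, and with brightness as a covariate the differences were 0.59 on vehicle (adjusted p 0.452) and 0.76 in mice given rapamycin.

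Clcf1 encodes cardiotrophin-like cytokine, which signals through the ciliary neurotrophic factor receptor complex. Its levels were -2.13, -2.20 and -2.85 in DMSO, and -2.17, -1.88 and -1.71 in rapamycin. They were -1.50, -1.89 and -1.40 in BA+DMSO, and -0.34, -0.26 and -0.64 in BA+rapamycin. On this scale all BA+rapamycin arrays lay above all other arrays, and BA+DMSO lay above DMSO. The processed signal, before division by array brightness, did not separate the groups. It was 30.7 to 63.8 intensity units in DMSO and 21.1 to 93.3 in BA+DMSO. In rapamycin it was 57.2 to 103.1, and in BA+rapamycin 62.3 to 86.1. The challenge raised Clcf1 by 0.80 (SE 0.23, limma adjusted p 0.0355) and, in mice given rapamycin, by 1.502 (adjusted p 0.00131). With the date in the sample titles as a random block the former was 0.76 and lost its call (adjusted p 0.0765). Titles of 10 of the 12 samples hold a date, and those of BA+DMSO replicates 2 and 3 do not, so each of these was a block of its own.

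Of the 9 members, Clcf1 came nearest to the threshold for rapamycin under the challenge among those tested there, with a difference of 1.18 (SE 0.23, unadjusted p 0.000384, limma adjusted p 0.0659). The adjusted p was 0.00984 without BA+DMSO replicate 2 and 0.195 without BA+rapamycin replicate 2, and 0.0482 with the title date as a random block. The challenge call on vehicle was lost without DMSO replicate 2 (0.0724), DMSO replicate 3 (0.129), rapamycin replicate 2 (0.0547), BA+DMSO replicate 1 (0.102) or BA+DMSO replicate 3 (0.053). Under the challenge in mice given rapamycin the call was kept without each of the 12 arrays.

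Osm encodes oncostatin M, a cytokine made mainly by myeloid cells. Its probe was not well above background on any of the 12 arrays, with a processed signal of 3.84 to 4.98 intensity units throughout, and it was not tested. Its scaled level was nevertheless higher on dim arrays, at -4.80 to -4.21 in BA+rapamycin against -6.20 to -5.77 in rapamycin. This is the scale of an undetected probe after division by array brightness, and no difference in Osm was measured.

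**Figure D2:**
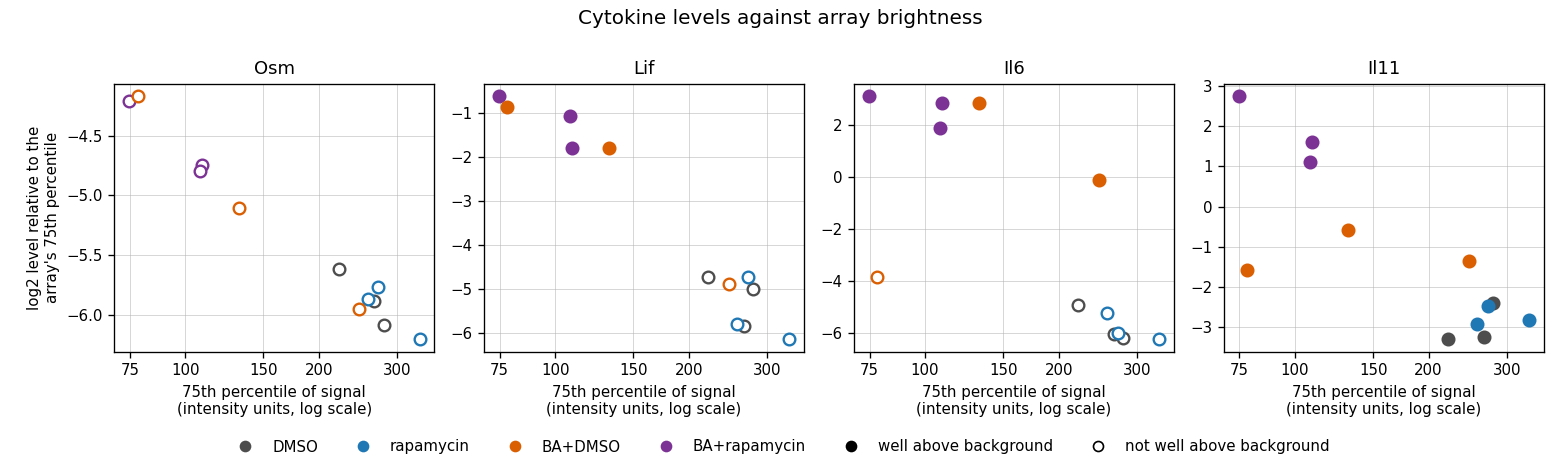
Log2 level of Osm, Lif, Il6 and Il11 (y axis) on each of the 12 arrays against the array's 75th percentile of signal in intensity units (x axis, log scale), with open points where the probe was not well above background. Osm falls along 1 line as arrays get brighter. Pearson r of the level with the negative log2 of the 75th percentile was 0.992 for Osm, 0.974 for Lif, 0.738 for Il6 and 0.806 for Il11. On BA+DMSO replicate 2 (78.1) and BA+rapamycin replicate 2 (74.6), Il6 was at -3.83 and 3.11 and Il11 at -1.58 and 2.74. Most challenged arrays were also dim, so the plot does not separate challenge from brightness.

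Il6ra encodes the alpha chain that binds IL-6. Its levels were 1.24, 1.32 and 1.58 in DMSO, and 2.08, 2.08 and 1.58 in rapamycin. They were 2.69, 3.12 and 1.59 in BA+DMSO, and 3.04, 3.47 and 3.14 in BA+rapamycin. BA+DMSO replicate 3 lay just above the highest DMSO array, and BA+rapamycin did not overlap rapamycin. Il6ra rose with the challenge by 1.08 (SE 0.33, limma adjusted p 0.0424) and in mice given rapamycin by 1.305 (adjusted p 0.0118), folds of 2.12 and 2.47.

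The call for Il6ra on vehicle was lost when any 1 of 11 arrays was left out, with adjusted p up to 0.130 without BA+DMSO replicate 1, and kept without BA+DMSO replicate 3 (0.00118). The call in mice given rapamycin was lost when rapamycin replicate 3 was left out (0.0526). With array brightness as a covariate the differences were 0.24 on vehicle (adjusted p 0.294) and -0.17 in mice given rapamycin (adjusted p 0.670). Rapamycin under the challenge gave a difference of 0.75 (adjusted p 0.242), with the challenged groups overlapping.

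Osmr encodes the receptor chain that pairs with gp130 to bind oncostatin M. Its levels were 2.57, 2.50 and 2.33 in DMSO, and 2.99, 3.21 and 3.17 in rapamycin. They were 3.91, 3.40 and 3.64 in BA+DMSO, and 4.57, 4.23 and 4.06 in BA+rapamycin. On this scale the 4 groups did not overlap and stood in this order. The processed signal overlapped between DMSO (1111 to 1660 intensity units) and BA+DMSO (821 to 3077). It also overlapped between rapamycin (2044 to 3029) and BA+rapamycin (1401 to 2599). Osmr rose with the challenge by 1.18 (SE 0.19, limma adjusted p 0.0024) and in mice given rapamycin by 1.16 (SE 0.19, adjusted p 0.0016), folds of 2.27 and 2.24. Both calls were kept without each of the 12 arrays and with array brightness as a covariate.

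For Osmr, rapamycin gave differences of nearly the same size with and without the challenge, 0.64 (limma adjusted p 0.139) and 0.66 (adjusted p 0.751). Their unadjusted p-values were 0.00641 and 0.00532. Neither passed the threshold over all probes, and the interaction, which is the difference between the 2 effects, was -0.02 (SE 0.27, 95% interval -0.61 to 0.57). Under the challenge the adjusted p was 0.0438 without BA+DMSO replicate 2, while leaving out any 1 of the other 11 arrays gave no call, with adjusted p up to 0.286 without BA+rapamycin replicate 2.

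Il6st, the gene of gp130, was well above background on all arrays. Its levels were 4.38, 4.33 and 4.32 in DMSO, and 4.67, 4.68 and 4.65 in rapamycin. They were 4.08, 3.55 and 4.38 in BA+DMSO, and 4.10, 3.69 and 3.84 in BA+rapamycin. The unchallenged groups were tight and did not overlap each other, and the challenged groups spread wider and overlapped each other. Il6st fell by 0.80 with the challenge in mice given rapamycin (SE 0.21, limma adjusted p 0.0126), a fold of 1.74 lower. On vehicle the difference was -0.34 (95% interval -0.79 to 0.12, adjusted p 0.268), and without BA+DMSO replicate 3 it was -0.53 (adjusted p 0.049). With array brightness as a covariate these differences were -0.0769 (adjusted p 0.855) and 0.0717 (adjusted p 0.770).

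Lifr encodes the LIF receptor chain, and its 3 probes did not give 1 result. Probe 1, the brightest and the 1 that stands for the gene, is annotated to transcript variant 1. Its levels were 2.06, 2.13 and 1.92 in DMSO, and 2.35, 2.25 and 2.65 in rapamycin. They were 1.70, 1.45 and 1.497 in BA+DMSO, and 1.45, 1.00 and 1.56 in BA+rapamycin. All challenged arrays lay below all unchallenged arrays. The fall was 1.08 in mice given rapamycin (SE 0.19, limma adjusted p 0.00223), and on vehicle the difference was -0.48 (adjusted p 0.0939), or -0.60 with normexp background correction, which gave a call (adjusted p 0.0333). With array brightness as a covariate the former was -0.79 (adjusted p 0.141).

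Probe 2 of Lifr, annotated to variant 2, read -0.40, -0.86 and -1.51 in DMSO, and -0.72, -0.87 and -0.52 in rapamycin. It read 0.42, -0.68 and 0.28 in BA+DMSO, and -0.89, -0.82 and -0.96 in BA+rapamycin. It was highest on BA+DMSO replicates 1 and 3, and the challenge difference on vehicle was 0.93 (SE 0.32, limma adjusted p 0.0613), opposite in sign to probe 1. Probe 3, also annotated to variant 1, spanned -2.30 to -1.52 over the 12 arrays, and none of its differences passed the threshold, with 0.29 for the challenge (adjusted p 0.3) and -0.02 in mice given rapamycin. The call for Lifr in mice given rapamycin therefore rests on probe 1.

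**Figure D3:**
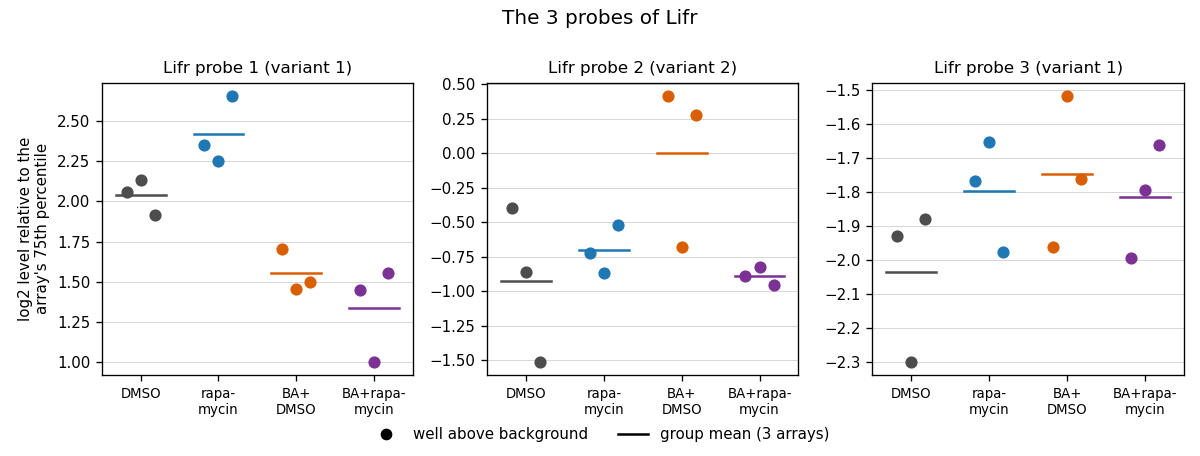
Log2 level of the 3 Lifr probes relative to the array's 75th percentile (y axis) on the 3 arrays of each group (x axis), with bars at group means. Probe 1 is lower on all 6 challenged arrays, probe 2 is highest on BA+DMSO replicates 1 and 3, and probe 3 shows no separation.

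The slide limits the challenge contrast on vehicle, since DMSO and BA+DMSO shared no slide. With the slide as a fixed block 0 of the 5 calls, Il6 and Lif included, remained, and 15 of 27801 probes were called in all. Osmr then had a difference of 0.99 (adjusted p 0.3735) and Il6 one of 6.23 (adjusted p 0.3753), against 1.18 and 5.34 in the main fit. Only the rapamycin group lay on both slides, so the slide term rests on its replicate 1 against replicates 2 and 3. The loss of calls therefore does not tell a slide effect from low precision. The challenge in mice given rapamycin could be compared on slide 2 alone, with rapamycin replicates 2 and 3 against the 3 BA+rapamycin arrays. There the 5 members detected on all arrays kept their call, with differences of 1.38 for Clcf1, 1.39 for Il6ra, 1.098 for Osmr, -0.795 for Il6st and -1.11 for Lifr. The difference for Lif was 4.28. Rapamycin under the challenge was wholly within slide 2.

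**Figure D4:**
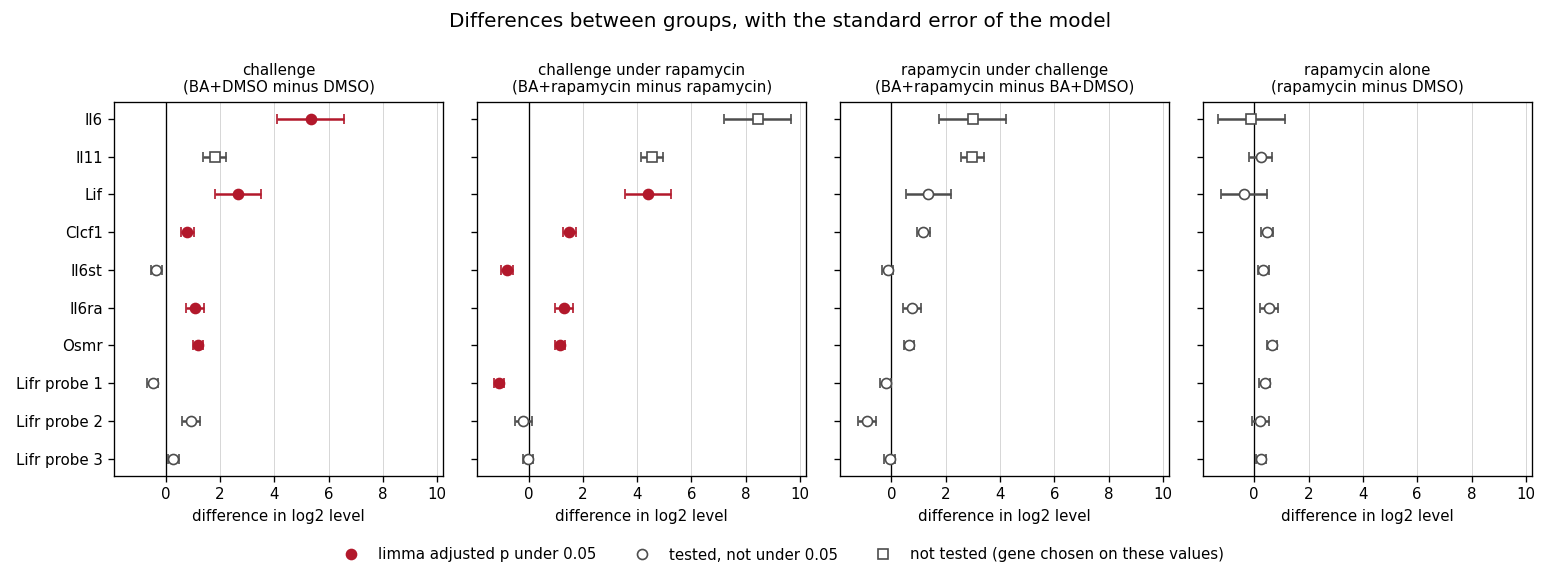
Differences in log2 level (x axis) for the 8 genes that passed the filter, with Lifr as 3 probes (y axis), in 4 comparisons, with bars for the standard error of the model. Filled points passed an adjusted p of 0.05, open circles did not, and squares were not tested because the gene was chosen on these values. The filled point of Lif in mice given rapamycin is not read as a test, since Lif entered only through BA+rapamycin.

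Over the tested members detected on all arrays, the groups did not overlap for 4 of 5 with the challenge, where 34.6% of all probes did not, and for 5 of 5 in mice given rapamycin, where 65.9% did not. Rapamycin under the challenge separated Clcf1 and Osmr, 2 of 5 (14.5% of all probes). Rapamycin alone separated 4 of 6 (21.5% of all probes), and in all 4, Il6st, Il6ra, Osmr and Lifr, the rapamycin arrays were higher. These 4 are the receptor chains among the members, and 1 of them reached an unadjusted p under 0.05. DMSO arrays were all on slide 1, while rapamycin replicates 2 and 3 were on slide 2. With the slide as a fixed block the differences were 0.33, 0.70, 0.53 and 0.31, and none of the 4 was called. Il6ra was barely separated, with 1.578 on the highest DMSO array and 1.581 on the lowest rapamycin array. Lifr was counted by probe 1, while its probes 2 and 3 overlapped. For the interaction 0 of 5 were called, as were 0% of all probes by limma, and 1, Lifr, had an unadjusted p under 0.05, as did 6.12% of all probes.

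A list of 11 further genes of the family was examined beside the members, of which 10 were on the array and 6 passed the filter. With the challenge Ebi3 rose and Ctf1 fell, 2 of 6 where 20.5% of all probes were called, with a list median difference of -0.13 against -0.04 over all probes. In mice given rapamycin Ebi3 rose and Ctf1 and Il11ra1 fell, 3 of 6 where 41.7% of all probes were called, with a median of 0.17 against -0.08.

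Ebi3, a shared subunit of IL-27 and IL-35, had levels of -1.97, -2.01 and -2.38 in DMSO and -1.95, -1.68 and -1.68 in rapamycin. It stood at 0.12, -0.00 and -0.03 in BA+DMSO, and at -0.91, -1.24 and -1.07 in BA+rapamycin. It rose by 2.15 with the challenge (SE 0.17, limma adjusted p 0.0001) and by 0.69 in mice given rapamycin (adjusted p 0.0104), where the call was lost with quantile normalization (0.48, adjusted p 0.051) and with brightness as a covariate (0.86, adjusted p 0.0866). Ctf1, the gene of cardiotrophin-1, fell by 0.63 (adjusted p 0.038) and by 1.20 (adjusted p 0.00138), and was lowest in BA+rapamycin, at -0.83, -0.61 and -0.85 against 0.92 to 0.99 in DMSO. The Ctf1 call on vehicle was lost in 13 of 23 alternative settings and without 9 of 12 arrays, with adjusted p up to 0.118 without DMSO replicate 2. It was kept without BA+rapamycin replicate 2, BA+DMSO replicate 2 or BA+DMSO replicate 3. With brightness as a covariate its differences were -0.35 (adjusted p 0.197) and -0.71 (adjusted p 0.119). Il11ra1, the alpha chain that binds IL-11, fell by 0.42 in mice given rapamycin (adjusted p 0.046), from 7.48 to 7.71 in rapamycin to 7.04 to 7.34 in BA+rapamycin. This call was lost with the slide as a fixed block (-0.35, adjusted p 0.149), with the title date as a random block (-0.37, adjusted p 0.0883) and without any 1 of the DMSO, rapamycin or BA+rapamycin arrays, and was kept without each BA+DMSO array. In all it was lost in 15 of 24 alternative settings, with differences from -0.92 to -0.23. The smallest was with the percentile over detected probes (adjusted p 0.2575).

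For rapamycin under the challenge 2 of 6 genes of this list passed the threshold (0.281% of all probes) and none of the members did. Ebi3 and Ctf1 were lower, at -1.105 (limma adjusted p 0.0297) and -1.09 (adjusted p 0.0491). The challenged groups did not overlap for either gene. These calls were lost in 13 and 15 of 23 alternative settings, and leaving out 1 array gave between 0 and 4 calls in the list, with 4 without BA+DMSO replicate 2 and 0 without DMSO replicate 2. Over all probes 11092 were called without BA+DMSO replicate 2 and 30 without DMSO replicate 2, against 78 with all arrays. The call was kept for Ebi3 without DMSO replicate 3, BA+DMSO replicate 1 or BA+DMSO replicate 2, and for Ctf1 without BA+DMSO replicate 2, and was lost without each other array. Rapamycin alone gave 0 calls in the list, with 1 gene at an unadjusted p under 0.05.

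**Figure D5:**
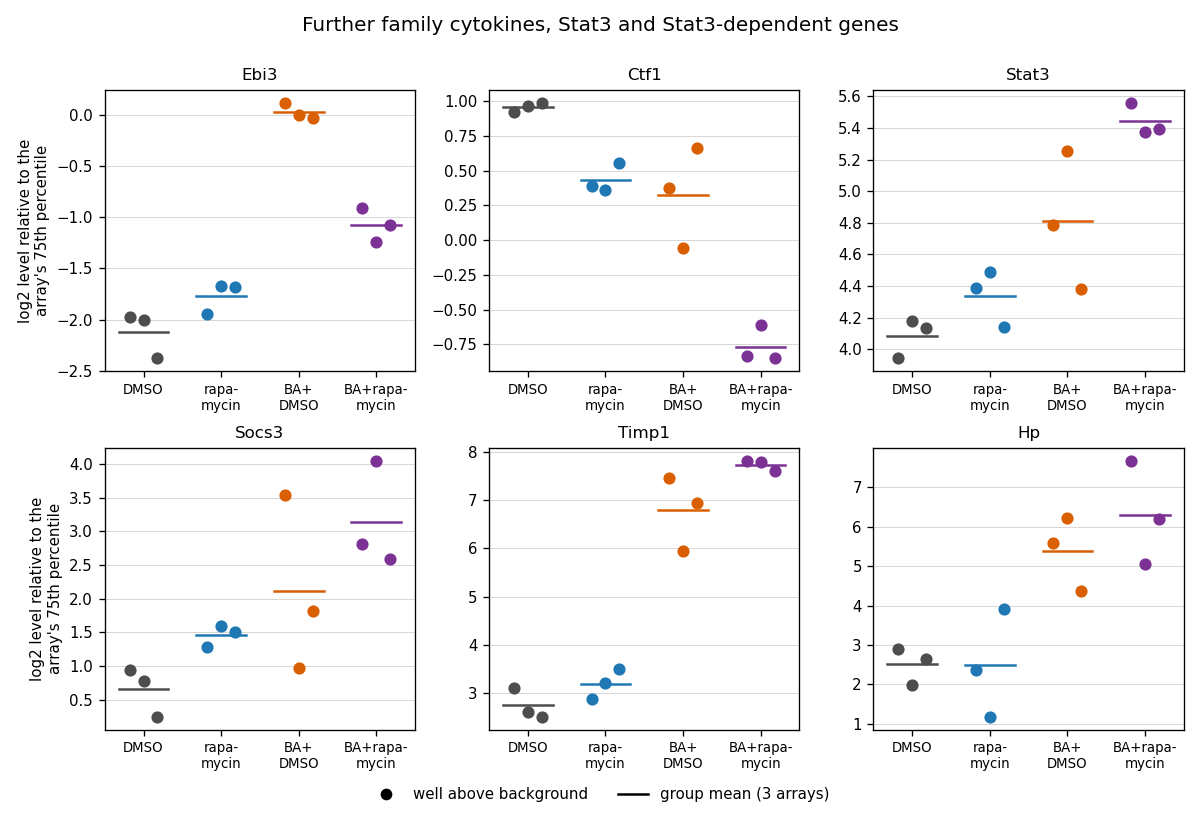
Log2 level of Ebi3, Ctf1, Stat3, Socs3, Timp1 and Hp relative to the array's 75th percentile (y axis) on the 3 arrays of each group (x axis), with bars at group means. Ebi3 is highest in BA+DMSO, Ctf1 is lowest in BA+rapamycin, and Stat3 and Timp1 are highest there.

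Below the receptors, 11 of 12 genes of Janus kinases, Stat factors and their inhibitors passed the filter. With the challenge 1 rose and 3 fell, 36.4% of the list against 20.5% of all probes, with a list median of -0.19 against -0.04. In mice given rapamycin 2 rose and 3 fell, 45.5% against 41.7%, a share near that of all probes, with a median of -0.25 against -0.08. Stat3 itself rose by 0.72 (limma adjusted p 0.037) and by 1.11 (adjusted p 0.00358). The former call was lost without 8 of 12 arrays, with adjusted p up to 0.118 without DMSO replicate 1, and kept without rapamycin replicate 3, BA+rapamycin replicates 1 and 2 and BA+DMSO replicate 3. It was also lost with the title date as a random block (0.70, adjusted p 0.0511). With brightness as a covariate the differences were 0.32 (adjusted p 0.233) and 0.40 (adjusted p 0.357). Socs3, the feedback inhibitor of gp130 signalling, rose by 1.69 in mice given rapamycin (SE 0.56, adjusted p 0.0343), a call lost with the title date as a random block (1.23, adjusted p 0.121), without any 1 of the rapamycin arrays or without BA+rapamycin replicate 2 (adjusted p 0.127). The Socs3 call was also lost with the slide as a fixed block (1.60, adjusted p 0.0897) and kept on slide 2 alone (adjusted p 0.0359). On vehicle its levels were 3.54, 0.96 and 1.82 in BA+DMSO against 0.95, 0.77 and 0.25 in DMSO. Jak2 (-0.79 and -0.76), Stat5b (-0.81 and -0.62) and Ptpn11 (-0.58 and -0.81), a kinase, a transcription factor and a phosphatase of the pathway, fell in both comparisons. The Ptpn11 call on vehicle was lost without 11 of 12 arrays, with adjusted p up to 0.136 without DMSO replicate 2, and kept without BA+DMSO replicate 3, while those of Jak2 and Stat5b were kept without each of the 12. The title date as a random block also removed the Ptpn11 call on vehicle (-0.56, adjusted p 0.0579).

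Of 12 genes known to depend on Stat3, all passed the filter, Saa3 only through the challenged groups, so it is left out of the counts. Of the other 11, 6 rose with the challenge (9.65% of all probes) and 7 in mice given rapamycin (18.9%), and none fell. The median was 1.42 and 1.845, against -0.04 and -0.08 over all probes. Timp1, an inhibitor of matrix metalloproteinases, rose by 4.05 (SE 0.34, limma adjusted p 0.000117) and 4.55 (SE 0.34, adjusted p 6.31e-05). Saa3, an acute-phase protein, was higher by 4.84, a bound of at least 7.37-fold since no DMSO array detected it, and by 5.09 in mice given rapamycin, where 2 of 3 rapamycin arrays detected it. Hp, the gene of haptoglobin, rose by 2.87 (limma adjusted p 0.0242) and 3.82 (adjusted p 0.00408). Its call on vehicle was lost without any 1 of the DMSO arrays, BA+DMSO replicate 1 or BA+DMSO replicate 2, with adjusted p up to 0.0966, and with the title date as a random block (2.56, adjusted p 0.0669). For rapamycin under the challenge 0 of the 11 were called by limma, while 4 had an unadjusted p under 0.05 and the median was 0.78 against -0.01 over all probes. Neither Adam10 nor Adam17, proteases that shed the IL-6 receptor, was called in any comparison.

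Macrophage markers moved with these results. The list of Cd68, Adgre1, Csf1r, Aif1 and Itgam was above background on all arrays, and the log2 of its summed level lay between 6.75 and 7.11 in both unchallenged groups. It was 8.45, 8.92 and 7.42 for BA+DMSO replicates and between 8.51 and 8.93 for BA+rapamycin. With the challenge 4 of 5 rose (9.65% of all probes), and in mice given rapamycin 5 of 5 rose (18.9%). For rapamycin under the challenge 0 of 5 passed limma's test, 2 had an unadjusted p under 0.05, and the differences ran from -0.81 for Adgre1 to 0.70 for Itgam. The sum follows Itgam, the brightest of the 5 probes, at 8.74 in BA+DMSO replicate 2, without detected Il6, and 6.53 in replicate 3, with Il6 and without Lif. The other 4 markers ran the other way and were lower in replicate 2, such as Cd68 at 1.93 against 3.53. With the challenge 2 of 2 mesothelial, 2 of 3 T cell, 1 of 3 neutrophil and 1 of 4 fibroblast markers also rose, and in mice given rapamycin 2 of 3 T cell and 1 of 4 fibroblast markers did. In those mice 1 of 4 smooth muscle markers (Tagln, 1.05) and the 1 tested adrenal marker (Cyp21a1, 0.95) also rose, and 1 of 3 endothelial markers (Pecam1, -0.87) fell. No marker of adipocytes (3 tested) or B cells (1 tested) was called in either. All 3 adipocyte markers were nevertheless higher, by 1.42 to 2.08 with the challenge and by 1.67 to 1.905 in mice given rapamycin. The log2 of their summed level spread widely, at 4.29, 0.76 and 2.49 in BA+rapamycin, against Hp levels of 7.67, 5.05 and 6.19. In each of the 4 groups this sum ranked the 3 arrays as Hp did. A part of adipocytes in the level of Hp was not tested. The part of these cells in the family's levels was not tested.

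Genes whose pattern over the 12 arrays was most like that of each cytokine were taken by Pearson r, as a description of likeness. For Il6 they were Enc1 (0.982), Fam38b (0.979) and Lat2 (0.976). For Il11 they were Tnfsf15 (0.981), Rpl35 (0.974) and Rps20 (0.973). For Lif they were Lrrc2 (0.993), 1500016L03Rik (0.991) and Celf3 (0.989), and for Osm, which was not detected, Glrx2 (0.993), Elk1 (0.993) and ND3 (0.991). All 12 arrays share the split by challenge and by brightness that these values rest on.

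Promoters were searched for letters of 6 known motifs because several members rose together. The RefSeq table in build GRCm38.p6 held 7 of the 9 members, with 9 windows of 250 bases before and 50 after a start. Both strands were read. The AP-1 motif was TGANTCA. The CRE motif was TGACGTCA. The C/EBP motif was TTGCNCAA. The STAT motif was TTCNNNGAA. The TATA box was TATAAA, and the NF-kB motif was GGGA and TTCC with any base at the 2 positions between them. The AP-1 motif was found in 4 of the 7 members, Il6, Il11, Lif and Osmr. By window this was 4 of the 9, against 7.81% of all 32851 windows. Il6 also held the NF-kB and C/EBP motifs, which were found in 1.47% and 2.94% of all windows. The CRE, STAT and TATA box motifs, found in 1.79%, 8.3% and 13.6% of all windows, had no match in the members' windows. The windows of the 3 cytokines are printed with matches in capitals. For Il11 the window is the second of 2, since the first held no match.
Il6, chr5:30012864-30013163, plus strand: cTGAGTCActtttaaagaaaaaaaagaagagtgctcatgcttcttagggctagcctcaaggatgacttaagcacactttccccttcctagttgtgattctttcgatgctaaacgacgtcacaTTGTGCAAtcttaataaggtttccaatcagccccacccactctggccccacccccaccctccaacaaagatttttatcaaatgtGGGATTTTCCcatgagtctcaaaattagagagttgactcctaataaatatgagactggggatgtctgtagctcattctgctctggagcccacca
Il11, chr7:4778092-4778391, minus strand: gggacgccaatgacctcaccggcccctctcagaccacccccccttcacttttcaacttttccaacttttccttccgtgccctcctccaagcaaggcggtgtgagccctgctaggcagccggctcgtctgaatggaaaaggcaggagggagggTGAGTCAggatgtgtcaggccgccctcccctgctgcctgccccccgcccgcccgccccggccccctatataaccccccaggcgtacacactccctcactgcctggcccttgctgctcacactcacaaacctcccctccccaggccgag
Lif, chr11:4257318-4257617, plus strand: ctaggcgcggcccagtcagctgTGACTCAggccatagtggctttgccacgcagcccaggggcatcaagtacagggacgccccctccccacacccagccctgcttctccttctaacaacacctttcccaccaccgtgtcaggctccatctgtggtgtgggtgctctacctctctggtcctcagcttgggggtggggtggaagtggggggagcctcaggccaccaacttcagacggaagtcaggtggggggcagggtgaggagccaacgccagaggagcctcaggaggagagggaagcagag

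Counted from the start, with negative positions before it, the AP-1 motif lay at -249 to -243 in Il6, -98 to -92 in Il11, -228 to -222 in Lif and 4 to 10 in Osmr. In Il6, the C/EBP motif lay at -128 to -121 and the NF-kB motif at -44 to -35. None of these matches overlapped another. A match describes the letters of the window and is not a measurement of binding.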

How the data were processed

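RNA from 12 aortic samples was labelled with the dye Cy3 and hybridised by the authors to mouse arrays from Agilent, with 1 colour, on 2 slides. Feature Extraction 10.7.1.1 read the images per the file headers, while the submitters' processing notes name version 9.5.1.1. The deposited processed signal and raw spot and background signals are intensity values, linear and unscaled across arrays, and the deposited quality columns are flags. The matrix that the authors deposited holds intensity that, by its values, was quantile normalized.

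Here outlier spots were left out, processed signals went to the log2 scale, repeated spots were averaged, and the 75th percentile of each array was subtracted (6 of 55681 probes were dropped). The 27801 probes that entered the test had, in some group, a share of 0.5 or more of their spots detected well over background on each of its 3 arrays. One limma 3.58.1 model held all 12 arrays with a mean per group (R 4.3.3, data.table version 1.17.8, prior degrees of freedom 3.02). Tests were two-sided, adjusted by Benjamini-Hochberg over the tested probes and called at 0.05. Intervals are at 95%. The number of arrays limits the precision, and replicates were numbered in deposition order. Where a gene had several probes, the brightest on average represented it. A bound ("at least") sets the bright group's mean against, on each dim array, the higher of the probe's signal and the lowest signal well above background.

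The members and all lists were chosen with earlier results of these data known. All members were named, and from each list the 3 called genes that differed most with the challenge, on vehicle and with rapamycin. One gene of a list is not reported here. Others named from the lists were chosen after their values were seen. So was keeping counts of members to those detected on all arrays. The fit was tested on simulated data. Alternatives covered the scaling, background correction, dim-probe filter, deposited matrix, slide, title date, array weights, groups fitted, another Lifr probe and each array left out. Brightness as a covariate and fits within a slide or title date were added after seeing the data.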

Additional observations from a re-analysis of the deposited data

Results flagged for a closer look

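Lifr probe 2, annotated to transcript variant 2, had differences of opposite sign with rapamycin, neither of which passed the threshold. They were -0.89 in challenged mice (limma adjusted p 0.186) and 0.22 in unchallenged mice (95% interval -0.48 to 0.92, adjusted p 1), with every BA+rapamycin array below the BA+DMSO mean and every rapamycin array above the DMSO mean. The difference between them was -1.11 (limma interaction p 0.0309, adjusted p 0.737), and opposite movement was not shown. The same difference of -1.11 separates the challenge in mice given rapamycin (-0.19) from the challenge on vehicle (0.93).

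Ebi3 likewise differed by -1.105 with rapamycin in challenged mice and by 0.35 in unchallenged mice (limma adjusted p 1), a difference of -1.46 (limma interaction p 9.19e-05, adjusted p 0.308). The adjusted p was 0.0239 without BA+DMSO replicate 2 and 0.0279 with array weights, while leaving out any 1 of the other 11 arrays gave no call, with adjusted p up to 0.951 without rapamycin replicate 3.

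Il31, a cytokine that signals through Il31ra and Osmr, was not well above background on any of the 12 arrays, so no difference in it was measured and none was tested. Its scaled values, which like those of Osm were higher on dim arrays, differed by 0.53 and -0.45 in the same comparison, 0.98 apart.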

How the results depend on the processing

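No paired analysis was possible because the replicate numbers were given in deposition order and pair no samples. Dates in the sample titles, which some arrays of different groups share, were fitted as a random block instead (consensus correlation 0.496), with BA+DMSO replicates 2 and 3, whose titles hold none, as blocks of their own. Of the tested differences of single genes under alternatives, 1009 kept their direction and side of the threshold, 170 lost the call, 18 gained it and 8 turned.

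The 5 members called for the challenge, Il6 and Lif included, became 4 with the title date as a block (Clcf1 was lost) and 6 with normexp (Lifr was gained). They became 3 with quantile normalization, 3 with the 75th percentile over detected probes, 3 with the deposited matrix and 2 with no filter on dim probes. With probes above background on all arrays they became 3, since Il6 and Lif did not enter that fit. They became 1 with only the 2 groups of the contrast, 0 with the slide as a block and 3 with brightness as a covariate. Over all probes these settings called 5320, 6577, 5474, 5926, 5451, 4257, 4942, 1244, 15 and 5086, in this order, against 5697 in the main fit. Leaving out 1 array gave 1 (without DMSO replicate 2, 2051 probes called) to 5 (without BA+DMSO replicate 3, 10574 probes called). Osmr kept its call in 22 of 23 settings and Il6 in 19 of 22, and Lif and Il6ra in 6 of 22 and 5 of 23. For the challenge under rapamycin, 2 of the 5 called members detected on all arrays, Clcf1 and Osmr, kept their call with brightness as a covariate. Over all probes 1786 were called there, against 11602 in the main fit. For rapamycin under challenge the 0 calls became 1 with the percentile over detected probes, 1 with the title date as a block, 1 with array weights and 1 with brightness, each time Clcf1, and leaving out 1 array gave 0 to 3. Over all probes these settings called 473, 458, 7094 and 312, against 78 in the main fit. The 3 calls came without BA+DMSO replicate 2, where 11092 probes were called. For rapamycin alone array weights gave 1 call, Osmr, where 535 probes were called in all, against 1 in the main fit. The weights were estimated gene by gene because limma's default estimate did not converge.

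For the other family genes, the 2 challenge calls became 4 with normexp, 1 with no filter, 1 with only the groups of the contrast and 0 with the slide as a block, and leaving out 1 array gave 1 to 3. Over all probes the 4 named settings called 6577, 4257, 1244 and 15, against 5697 in the main fit. The 3 calls for the challenge under rapamycin became 5 with normexp, 2 with the slide as a block, 2 with the title date as a block and 1 with brightness, and leaving out 1 array gave 2 to 4. Over all probes the 4 named settings called 17357, 7923, 11130 and 1786, against 11602 in the main fit. The 2 calls for rapamycin under challenge became 0 with normexp, with no filter, with the slide and with only the groups of the contrast, and 4 with array weights, and leaving out 1 array gave 0 to 4. Over all probes array weights called 7094 and the fit without BA+DMSO replicate 2 called 11092, against 78 in the main fit. Array weights gave 1 call for rapamycin alone and 1 for the interaction, where leaving out 1 array gave 0 to 2. Over all probes array weights called 535 and 929 in these comparisons, and the interaction without BA+DMSO replicate 2 called 3058.

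With the slide as a block Stat3, Jak2, Stat5b, Ptpn11, Timp1 and Hp did not pass the threshold for the challenge, with differences of 0.80, -0.87, -0.74, -0.76, 3.58 and 2.70 and adjusted p from 0.09 (Timp1) to 0.534 (Hp). In mice given rapamycin and with brightness as a covariate, Stat3, Socs3, Jak2, Stat5b, Ptpn11 and Hp did not pass, with differences of 0.40, 1.95, -0.57, -0.44, -0.31 and 3.43, while Timp1 did (5.42).

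As descriptions, the Il6 and Il11 differences for the challenge under rapamycin were 4.38 and 3.06 with normexp, and the Il6 difference for rapamycin under challenge ran from 0.15 with array weights to 4.60 without BA+DMSO replicate 1. These differences turned. Il6st for rapamycin under challenge was 0.0117 with the percentile over detected probes, 0.102 with brightness and between -0.35 and 0.0582 when 1 array was left out (0.0582 without BA+DMSO replicate 3), and its challenge difference was 0.0717 with brightness. Il6ra for the challenge under rapamycin was -0.17 with brightness. Lif for rapamycin alone was 0.0248 with brightness, and Il11 was -0.0174 with normexp. Lifr for the challenge was 0.93 by its second probe. The causes were not tested.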
